A study of Mus musculus with 16 samples.

Results

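Collagens are the triple-helical proteins of the extracellular matrix, and their genes were followed in tumour cells enriched from LLC1 tumours grown in mice; LLC1 is a Lewis lung carcinoma cell line. The members are the table rows whose mouse symbol is Col, a type number, the letter a and a chain number. This gave 37 collagen genes among 24334 genes, of which 11 were fibrillar, 5 were chains of the basement membrane collagen type IV, and 21 belonged to other types. RNA was sequenced from 16 libraries, 4 in each of 4 groups, and in each group the libraries were numbered 1 to 4. Mice in the TMP195 group received TMP195, an inhibitor of class IIa histone deacetylases, at 50 mg/kg. The MYCi975 group received MYCi975, which inhibits the transcription factor MYC, at 50 mg/kg. The Combo group received both compounds, at doses that are not stated for the combination, and the Vehicle group received DMSO. Treatment lasted 16 days in all groups. The labels name a single tumour line and do not say how tumour cells were enriched, or whether each library stands for its own animal. Strain, sex and age of the mice are not given in the labels used here. P-values reflect variation among libraries, part of which may be technical.

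Each collagen chain is made as a precursor, hydroxylated and folded in the endoplasmic reticulum with its partner chains, secreted, trimmed and cross-linked. Fibrillar collagens (types I, II, III, V, XI, XXIV and XXVII) form the banded fibrils that carry load in connective tissue. Type IV chains form the sheet-like network of basement membranes, and the other types coat fibrils, anchor membranes to the stroma, form beaded filaments or span the cell membrane. In tumours, most fibrillar collagen is usually made by fibroblasts, although many tumour cells of mesenchymal character also transcribe collagen genes.

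The deposited values are variance-stabilised and run on a scale close to log2, and every library has the same lowest value, 4.84. The number of reads behind each value is unknown, so no counting interval can be given. Testing required a gene to exceed that floor by 1 unit or more in 4 or more libraries, which 25 of the 37 collagens did (9 of 11 fibrillar, 3 of 5 type IV and 13 of 21 others), as did 15715 genes in all. Of these 25, 20 lay at least 1 unit above the lowest value in all 16 libraries. The others did so in 15 libraries (Col14a1), 14 (Col27a1), 11 (Col24a1), 10 (Col17a1) and 4 (Col20a1). Just inside the threshold, Col20a1 passed through 2 TMP195 and 2 MYCi975 libraries, with a highest value of 6.48, so a difference of those groups from the others is in part built into its selection. Just outside it, Col2a1, the type II chain of cartilage, was above in 3 libraries, 2 of MYCi975 and 1 of Combo, with a highest value of 6.20. The 12 collagens that did not pass were Col2a1, Col4a4, Col4a6, Col6a4, Col6a5, Col6a6, Col9a3, Col11a1, Col15a1, Col22a1, Col25a1 and Col26a1. A further 7 collagen symbols, Col4a3, Col8a2, Col9a1, Col9a2, Col10a1, Col13a1 and Col19a1, are not analysed here.

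**Figure D1:**
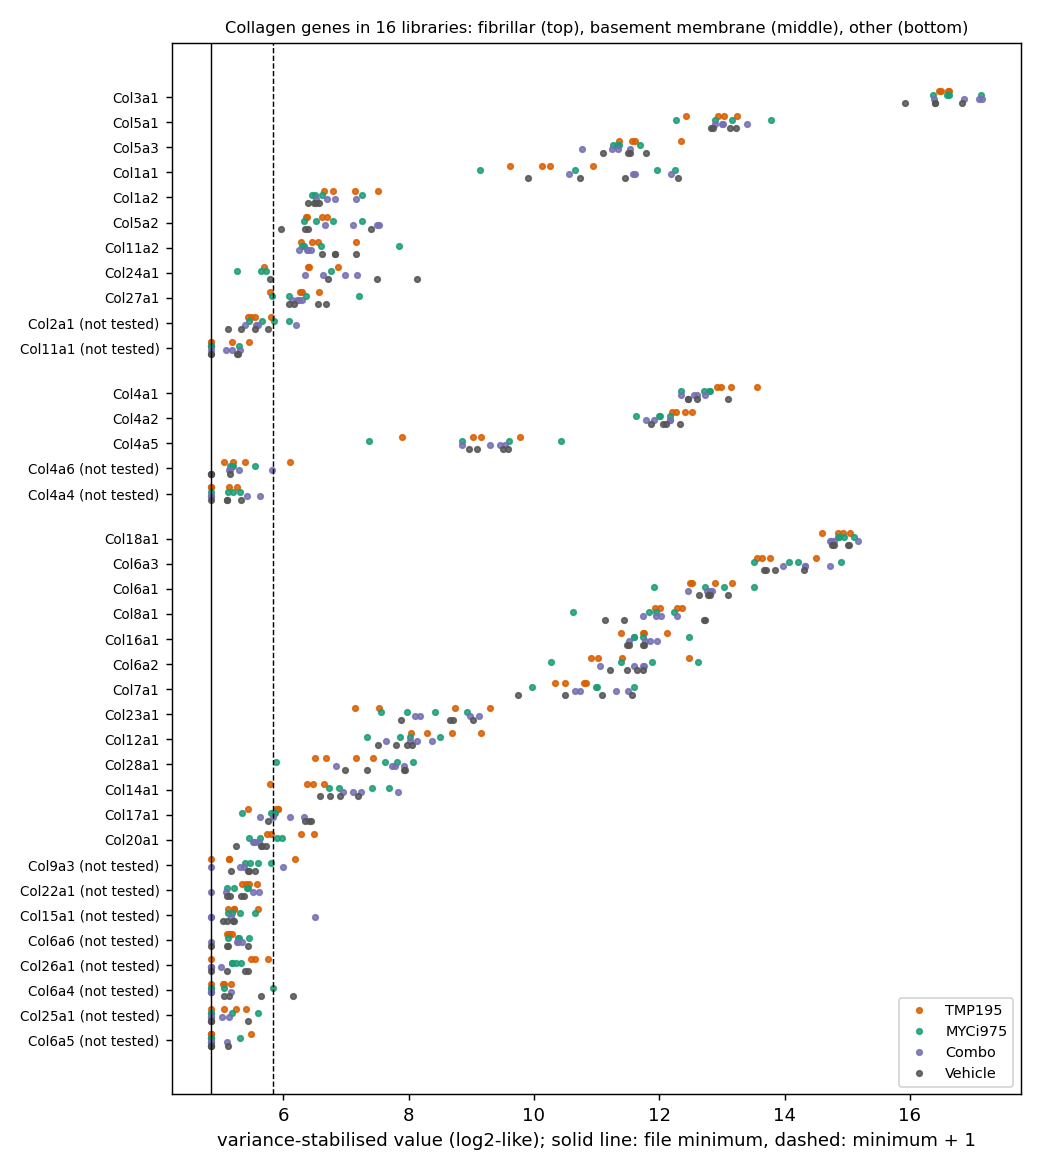
Variance-stabilised values (log2-like) of all 37 collagen genes, with a dot for each of the 16 libraries coloured by group, the file's lowest value as a solid line and the threshold 1 unit above it as a dashed line. Col3a1 lies between 15.92 and 17.15, whereas the 12 genes marked as not tested crowd the lowest value of 4.84.

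Marker genes bear on which cells the libraries held. Of 12 fibroblast markers, 9 were tested and 10 had a row. Dcn, Lum and Pdgfra averaged 14.16, 12.998 and 12.84, Dpt and Fap averaged 10.14 and 9.14, and Pdgfrb and Postn averaged 7.73 and 7.33. Pdpn and Pi16 averaged 5.88 and 5.87, and Thy1, at 5.11, lay near the lowest value and was not tested. Of 9 epithelial markers 4 were tested: the keratins Krt8 and Krt18 averaged 10.62 and 10.88, Krt7 and Krt19 averaged 6.88 and 5.83, and Epcam, Cdh1, Cldn4, Cldn7 and Esrp1 averaged 4.96 to 5.22 and were not tested. The defining markers of chondrocytes and osteoblasts that had a row, Ibsp and Sp7, were not tested, and 2 of 10 pericyte and smooth muscle, 3 of 10 endothelial, 1 of 5 adipocyte, 2 of 7 skeletal muscle and 2 of 5 Schwann cell markers were. The mean of the 7 tested leukocyte markers (of 9) ranged over 6.57 to 8.16 in TMP195 libraries, 6.25 to 7.37 in MYCi975 libraries, 6.24 to 6.82 in Combo libraries and 6.35 to 6.86 in Vehicle libraries. TMP195 replicate 1, at 8.16, and MYCi975 replicate 3, at 7.37, stood highest, with TMP195 replicate 2 close behind at 7.32. Some collagen differences are also given without TMP195 replicate 1, without MYCi975 replicate 3 or without both. The fibroblast marker mean ranged over 9.29 to 9.71 in TMP195 libraries, 8.85 to 9.84 in MYCi975 libraries, 9.50 to 10.02 in Combo libraries and 9.52 to 9.64 in Vehicle libraries. In such bulk RNA, fewer cells of a type and less RNA per cell cannot be told apart.

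Among the fibrillar collagens, the type III chain Col3a1 (ENSMUSG00000026043.19), which forms the fine fibrils of soft tissue, read 16.62, 16.47, 16.61 and 16.49 in TMP195 libraries, 16.59, 16.62, 16.37 and 17.14 in MYCi975 libraries, 16.39, 17.11, 17.15 and 16.86 in Combo libraries and 16.83, 16.40, 16.41 and 15.92 in Vehicle libraries. Combo replicate 3 was the highest library and Vehicle replicate 4 the lowest, and every group overlapped every other. Col5a1 (ENSMUSG00000026837.17), a chain of the type V collagen that starts fibril assembly, read 12.43, 13.04, 12.94 and 13.25 in TMP195 libraries, 12.89, 13.16, 12.26 and 13.78 in MYCi975 libraries, 12.997, 12.89, 13.40 and 13.02 in Combo libraries and 13.22, 12.83, 13.12 and 12.86 in Vehicle libraries. MYCi975 libraries held both its lowest value, in replicate 3, and its highest, in replicate 4. Col5a3 (ENSMUSG00000004098.8), another type V chain, read 11.56, 12.35, 11.61 and 11.35 in TMP195 libraries, 11.27, 11.36, 11.32 and 11.69 in MYCi975 libraries, 11.53, 10.76, 11.24 and 11.34 in Combo libraries and 11.53, 11.10, 11.79 and 11.504 in Vehicle libraries. Combo replicate 2 was the lowest library for Col5a3 and TMP195 replicate 2 the highest.

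Col1a1 (ENSMUSG00000001506.11), the main chain of type I collagen, the chief collagen of bone, skin and tendon, had the largest SD of the tested collagens over the 16 libraries, 0.99. It read 9.62, 10.26, 10.13 and 10.94 in TMP195 libraries, 10.66, 11.96, 9.14 and 12.24 in MYCi975 libraries, 11.59, 10.56, 12.19 and 11.61 in Combo libraries and 11.45, 10.73, 12.31 and 9.91 in Vehicle libraries. The MYCi975 libraries alone spanned over 3 units, and the 4 groups overlapped. The other type I chain, Col1a2 (ENSMUSG00000029661.17), which normally joins Col1a1 in the same triple helix, is described here after its values were seen, because it lay so far below its partner. It read 7.51, 6.80, 6.66 and 7.15 in TMP195 libraries, 6.45, 6.62, 7.25 and 6.51 in MYCi975 libraries, 6.70, 6.52, 6.82 and 7.16 in Combo libraries and 6.56, 6.39, 6.49 and 6.52 in Vehicle libraries. All 4 TMP195 libraries lay above the Vehicle libraries, which ranged over 6.39 to 6.56.

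To compare chains, each value was set per length by subtracting the log2 of the transcript length in kilobases. On this per-length scale, Col1a1 stood 4.05 ± 1.16 units above Col1a2 (SD, n = 16 libraries), with a lowest difference of 1.74 in MYCi975 replicate 3 and a highest of 5.67 in Vehicle replicate 3. The same per-length difference averaged 3.06 ± 0.75 in TMP195, 4.15 ± 1.73 in MYCi975, 4.54 ± 0.57 in Combo and 4.46 ± 1.02 in Vehicle libraries (SD, n = 4 each). The Combo libraries, at 3.90 to 5.22, lay above the TMP195 libraries, at 1.96 to 3.65, and the other pairs of groups overlap. This chain pair was picked after its values were seen, and the share of other gene pairs separated in this way was not determined. No conclusion is drawn from the separation. Type V was uneven too: per length, Col5a1 stood 5.92 ± 0.66 units above Col5a2, its usual partner, and 1.09 ± 0.45 above Col5a3 (SD, n = 16). Col1a2 and Col5a2 lie where variance stabilisation compresses differences, so these gaps understate the fold. In types IV and VI, Col4a1 exceeded Col4a2 per length by 0.62 ± 0.21 units and Col6a1 exceeded Col6a2 by 1.45 ± 0.26, while Col6a3 and Col6a1 differed by -0.02 ± 0.36 (SD, n = 16).

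The promoters of 3 fibrillar genes are shown as examples of a high, a middle and a low level. They are Col3a1, with a mean of 14.15 on the per-length log2-like scale, Col5a1, at 9.93, and Col1a2, at 4.34, which is not the lowest. Each is the stretch of 250 bases upstream of the annotated start, on the plus strand of mouse build GRCm38.p6 from RefSeq, and capitals mark motifs found by a search of both strands.
Col3a1, chr1:45311288-45311537: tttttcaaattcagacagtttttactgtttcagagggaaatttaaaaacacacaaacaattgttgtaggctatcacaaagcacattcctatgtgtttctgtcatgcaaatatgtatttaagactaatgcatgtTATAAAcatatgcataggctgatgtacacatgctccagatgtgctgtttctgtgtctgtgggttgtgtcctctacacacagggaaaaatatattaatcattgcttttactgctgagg
Col5a1, chr2:27886175-27886424: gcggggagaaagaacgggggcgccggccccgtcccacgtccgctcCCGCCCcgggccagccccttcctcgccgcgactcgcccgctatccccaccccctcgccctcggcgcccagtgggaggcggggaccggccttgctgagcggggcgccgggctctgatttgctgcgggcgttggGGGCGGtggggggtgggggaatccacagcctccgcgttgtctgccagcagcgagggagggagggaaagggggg
Col1a2, chr6:4505368-4505617: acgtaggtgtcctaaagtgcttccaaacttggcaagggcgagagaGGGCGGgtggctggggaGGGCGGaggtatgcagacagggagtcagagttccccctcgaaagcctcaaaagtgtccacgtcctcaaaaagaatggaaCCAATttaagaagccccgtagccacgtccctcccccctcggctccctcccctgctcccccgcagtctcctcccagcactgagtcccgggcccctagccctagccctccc
Col3a1 had the letters of a TATA box (TATAAA) beginning 117 bases before the start and no other searched motif. Col5a1 had GC boxes (GGGCGG) beginning 73 and 205 bases before the start. The one at 205 bases is on the minus strand and reads CCGCCC as printed. Col1a2 had a CCAAT box (CCAAT) at 109 bases and GC boxes at 205 and 188 bases. None of these motifs overlapped another kind. These motifs and the counts that follow are matches of letters anywhere in the window, and their function was not tested. Of 23 windows of 21 tested collagens, 3 held a TATA box, 14 a GC box and 9 a CCAAT box, against 12.37%, 32.74% and 33.85% of 32851 windows of the same length. The E-box bound by MYC (CACGTG) was in 0 of the 23 windows and in 6.021% of all, which says only that these letters are not in these windows.

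The remaining tested fibrillar chains were weak. Col24a1 (ENSMUSG00000028197.5), the chain of type XXIV collagen of developing bone and eye, read 6.87, 6.40, 6.40 and 5.69 in TMP195 libraries, 5.64, 6.77, 5.26 and 5.72 in MYCi975 libraries, 6.98, 6.63, 7.17 and 6.35 in Combo libraries and 5.79, 6.72, 8.14 and 7.497 in Vehicle libraries. It lay at least 1 unit above the file's lowest value in 3 TMP195, 1 MYCi975, 4 Combo and 3 Vehicle libraries, and Vehicle spanned over 2 units. Col5a2 (ENSMUSG00000026042.17), the type V partner of Col5a1, read 6.61, 6.70, 6.36 and 6.38 in TMP195 libraries, 6.32, 6.52, 7.26 and 6.80 in MYCi975 libraries, 7.49, 7.53, 6.67 and 7.11 in Combo libraries and 6.39, 7.40, 6.35 and 5.96 in Vehicle libraries. Combo held the 2 highest values and Vehicle replicate 2 came next. Col11a2, a type XI chain of cartilage, and Col27a1, the type XXVII chain, ranged over 6.25 to 7.85 and 5.78 to 7.20, each with its highest value in MYCi975 replicate 4.

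The type IV pair Col4a1 (ENSMUSG00000031502.12) and Col4a2 (ENSMUSG00000031503.14) encodes the network found in almost all basement membranes. In RefSeq on GRCm38.p6 the genes lie head to head on chromosome 8, with starts at 11312826 for Col4a1 on the minus strand and 11312805 for Col4a2 on the plus strand, 21 bases apart. With these starts each gene runs past the start of the other, so their first bases overlap and no gap lies between them. Whether reads were assigned by strand is not given in the sources used here. Col4a1 read 13.56, 12.98, 12.92 and 13.15 in TMP195 libraries, 12.81, 12.80, 12.35 and 12.71 in MYCi975 libraries, 12.55, 12.61, 12.35 and 12.73 in Combo libraries and 12.60, 13.09, 12.45 and 12.46 in Vehicle libraries. The 4 TMP195 libraries were higher than all but Vehicle replicate 2, at 13.09. Col4a2 read 12.41, 12.21, 12.52 and 12.27 in TMP195 libraries, 12.002, 12.02, 11.63 and 12.17 in MYCi975 libraries, 11.79, 12.16, 11.92 and 12.18 in Combo libraries and 12.06, 12.34, 12.10 and 11.87 in Vehicle libraries. TMP195 libraries were again high, and Vehicle replicate 2 was again the exception outside TMP195. Col4a5 (ENSMUSG00000031274.17), a chain of the specialised network of kidney and eye membranes, read 7.89, 9.15, 9.78 and 9.02 in TMP195 libraries, 9.60, 8.86, 7.37 and 10.44 in MYCi975 libraries, 9.47, 8.86, 9.54 and 9.29 in Combo libraries and 9.58, 9.50, 9.09 and 8.97 in Vehicle libraries. It had the widest spread of the 3, with lows in TMP195 replicate 1 and MYCi975 replicate 3, the libraries with the most leukocyte marker RNA, and its highest value in MYCi975 replicate 4. TMP195 replicate 2, close to MYCi975 replicate 3 in leukocyte marker mean (7.32 and 7.37), was not low, at 9.15. Col4a4 and Col4a6 did not pass the filter.

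Among the other collagens, Col18a1 (ENSMUSG00000001435.16), the multiplexin of basement membranes whose end fragment is endostatin, varied least of all tested collagens. It read 14.86, 15.05, 14.93 and 14.60 in TMP195 libraries, 14.87, 14.95, 14.86 and 15.11 in MYCi975 libraries, 15.17, 14.74, 14.79 and 14.73 in Combo libraries and 15.01, 14.75, 15.03 and 14.80 in Vehicle libraries, and all groups overlapped. The type VI chains Col6a3 (ENSMUSG00000048126.17) and Col6a1 (ENSMUSG00000001119.8) form beaded filaments around cells. Col6a3 read 13.64, 13.56, 13.76 and 14.50 in TMP195 libraries, 14.22, 14.07, 13.51 and 14.90 in MYCi975 libraries, 14.33, 13.98, 14.73 and 14.32 in Combo libraries and 13.84, 13.67, 14.31 and 13.71 in Vehicle libraries. Col6a1 read 12.53, 12.50, 12.90 and 13.16 in TMP195 libraries, 12.73, 13.03, 11.92 and 13.51 in MYCi975 libraries, 12.47, 12.76, 12.80 and 12.85 in Combo libraries and 12.63, 13.10, 12.78 and 12.81 in Vehicle libraries. For both, MYCi975 replicate 3 was the lowest library and replicate 4 the highest, a range that exceeded that of any other group. Col8a1 (ENSMUSG00000068196.6), a short-chain collagen of vessel walls, read 12.37, 11.93, 12.29 and 12.02 in TMP195 libraries, 12.24, 11.94, 10.63 and 11.84 in MYCi975 libraries, 11.75, 12.28, 12.02 and 11.94 in Combo libraries and 12.71, 12.73, 11.44 and 11.14 in Vehicle libraries. Its Vehicle libraries split into 2 high and 2 low values, so Vehicle spans all other libraries apart from MYCi975 replicate 3.

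Col23a1 (ENSMUSG00000063564.14), a transmembrane collagen, read 7.53, 8.74, 9.30 and 7.15 in TMP195 libraries, 8.42, 7.56, 7.97 and 8.94 in MYCi975 libraries, 8.99, 8.18, 9.13 and 8.11 in Combo libraries and 8.70, 7.88, 8.65 and 9.03 in Vehicle libraries. The TMP195 libraries alone covered the whole range of the 16. Col14a1 (ENSMUSG00000022371.18), which coats fibrils as a member of the FACIT group (fibril-associated collagens with interrupted triple helices), read 5.79, 6.48, 6.39 and 6.65 in TMP195 libraries, 6.88, 7.41, 6.72 and 7.69 in MYCi975 libraries, 7.12, 6.95, 7.83 and 7.24 in Combo libraries and 6.91, 6.74, 7.20 and 6.59 in Vehicle libraries. All TMP195 libraries but replicate 4 lay below every other library for Col14a1, and replicate 4, at 6.65, exceeded only Vehicle replicate 4. Col20a1 (ENSMUSG00000016356.19), a FACIT chain, read 5.81, 6.48, 6.27 and 5.74 in TMP195 libraries, 5.63, 5.98, 5.90 and 5.46 in MYCi975 libraries, 5.52, 5.53, 5.55 and 5.61 in Combo libraries and 5.73, 5.25, 5.66 and 5.65 in Vehicle libraries. Combo libraries were within 0.1 units of each other, below every TMP195 library. The fibril-coating Col16a1 and Col12a1 ranged over 11.39 to 12.48 and 7.34 to 9.16. Col7a1, the anchoring fibril collagen of skin, ranged over 9.74 to 11.59, the type VI chain Col6a2 over 10.28 to 12.62 and Col28a1, a type XXVIII chain known from peripheral nerve, over 5.89 to 8.07. Col17a1, the transmembrane collagen of hemidesmosomes, never exceeded 6.44.

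Set per length, the mean level over the 16 libraries was 14.15 log2-like units for Col3a1, followed by 12.41 for Col18a1, 10.74 for Col6a1, 10.73 for Col6a3, 10.03 for Col4a1 and 9.93 for Col5a1. Col6a1 and Col6a3 are not separated beyond their spread (SD of the level 0.35 and 0.42), nor are Col4a1 and Col5a1 (SD 0.33 and 0.35). The weakest tested levels per length were 3.37 for Col27a1, 3.41 for Col20a1 and 3.45 for Col17a1, which are likewise within their spread of each other. Before the length was subtracted they averaged 6.30, 5.74 and 5.93, near the lowest value, where variance stabilisation compresses differences. Their order per length therefore depends on transcript length and is not a ranking of RNA amounts.

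Collagen values varied widely between libraries. The SD over the 16 libraries had a median of 0.42 for the 25 tested collagens and 0.22 for all tested genes, and 24 of the 25 collagens lay above that all-gene median. With the group means removed, the median SD was 0.39 for the collagens and 0.22 for all genes. MYCi975 replicate 3 was the lowest of the 16 libraries for 11 of 25 collagens, whereas 10.2% of all tested genes were lowest there, and only 3 of the 25 lay above their own mean in it. MYCi975 replicate 4 was the highest library for 10 of 25 collagens, against 8.48% of all tested genes, with 19 of 25 above their own mean. In replicate 3 the fibroblast marker mean was 8.85, the pericyte and smooth muscle marker mean 5.97, both the lowest of all libraries, and the leukocyte marker mean 7.37. The pericyte and smooth muscle mean rests on Acta2 and Notch3 alone. Of the members not tested, Tagln had its highest value of all libraries there, 5.67, while Cspg4 stood at the lowest value, 4.84. The skeletal muscle marker mean of replicate 3, over 2 tested markers, was the highest of all libraries, at 6.54. That of replicate 4 came next, at 6.40, so the 2 libraries did not differ in this respect as they did in collagens. In replicate 4 the fibroblast marker mean was 9.84 and the leukocyte marker mean 6.64. The adipocyte marker Fabp4 was highest there, at 7.12, but Plin1, an adipocyte marker not tested, stood at the lowest value, 4.84. Its Schwann cell marker mean, 7.01, was the highest of all libraries. Its pericyte and smooth muscle marker mean was 7.42, as in Vehicle replicate 4. The part of these cells in the collagen values was not tested library by library.

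**Figure D2:**
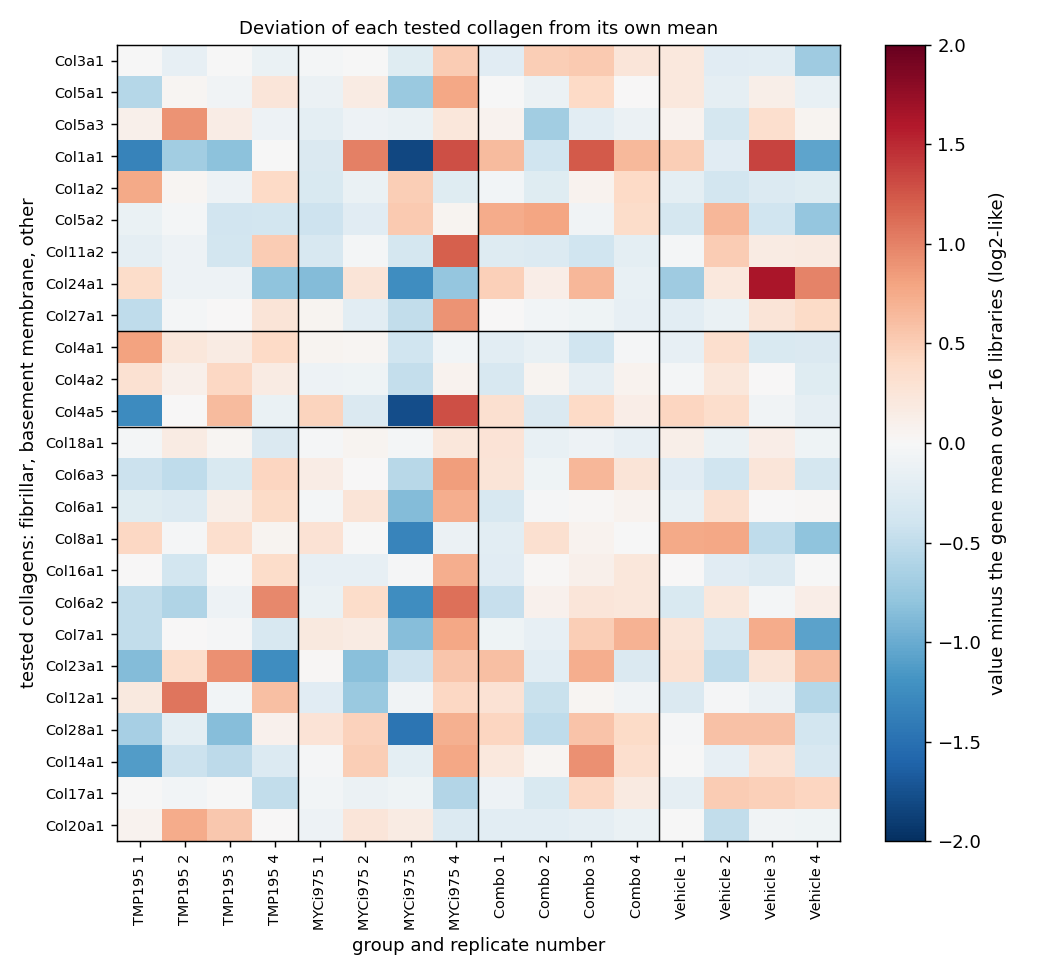
Heat map of the 25 tested collagens (rows, by class) in the 16 libraries (columns, by group and replicate number), coloured by the value minus the gene's mean over the 16 libraries, in log2-like units. MYCi975 replicate 3 is low for most rows and replicate 4 high, with 3 and 19 of 25 collagens above their own mean.

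Averaged by library, the 9 tested fibrillar chains were at 9.35 ± 0.10 in TMP195, 9.39 ± 0.39 in MYCi975, 9.56 ± 0.12 in Combo and 9.47 ± 0.21 in Vehicle (mean log2-like value ± SD, n = 4 each). The 3 tested type IV chains averaged 11.49 ± 0.19 in TMP195, 11.23 ± 0.56 in MYCi975, 11.29 ± 0.08 in Combo and 11.34 ± 0.24 in Vehicle. The 13 other chains averaged 9.95 ± 0.14 in TMP195, 10.001 ± 0.40 in MYCi975, 10.10 ± 0.18 in Combo and 10.01 ± 0.13 in Vehicle. In every class the MYCi975 libraries were the most scattered, between 8.997 and 9.88 for fibrillar, 10.45 and 11.77 for type IV and 9.48 and 10.47 for other chains, and each group's range met that of the Vehicle libraries.

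**Figure D3:**
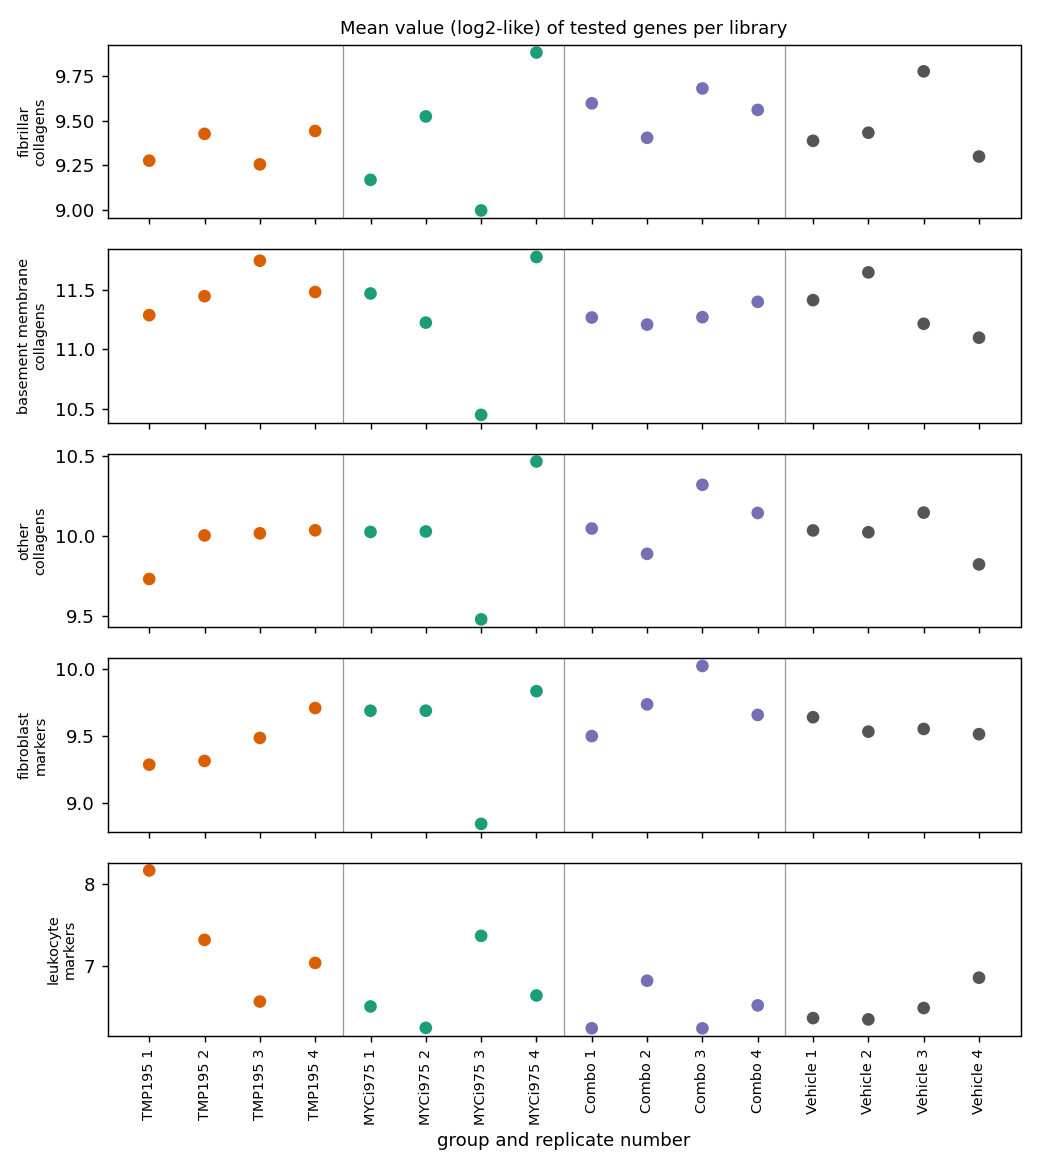
Mean log2-like value per library of the tested fibrillar, type IV and other collagens and of the tested fibroblast and leukocyte markers; each panel has its own axis, which does not start at 0. MYCi975 replicate 3 has the lowest mean of all 3 collagen classes and of the fibroblast markers (8.85), and TMP195 replicate 1 the highest leukocyte marker mean (8.16).

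Differences between groups were tested with limma across all 15715 genes, with Benjamini-Hochberg adjustment. In the test for any difference among the 4 groups, 0 of 25 collagens passed an adjusted p of 0.05, as did 0% of all genes. At an unadjusted p under 0.05 there were 5 collagens, Col14a1 (unadjusted p = 0.00428), Col4a1, Col20a1, Col4a2 and Col24a1, beside 3.83% of all genes. The place of Col20a1 here is in part built in, since it passed the filter through TMP195 and MYCi975 libraries only. For the typical collagen, the 95% confidence interval of a difference between 2 groups extended 0.51 units to either side (median of 25). For such a gene, smaller differences could not be told from 0 here even before adjustment. Some genes had narrower intervals, such as Col4a2 in Combo against TMP195 (-0.34, interval -0.62 to -0.06). None of the 6 comparisons called any gene, and the collagens are described by their values.

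**Figure D4:**
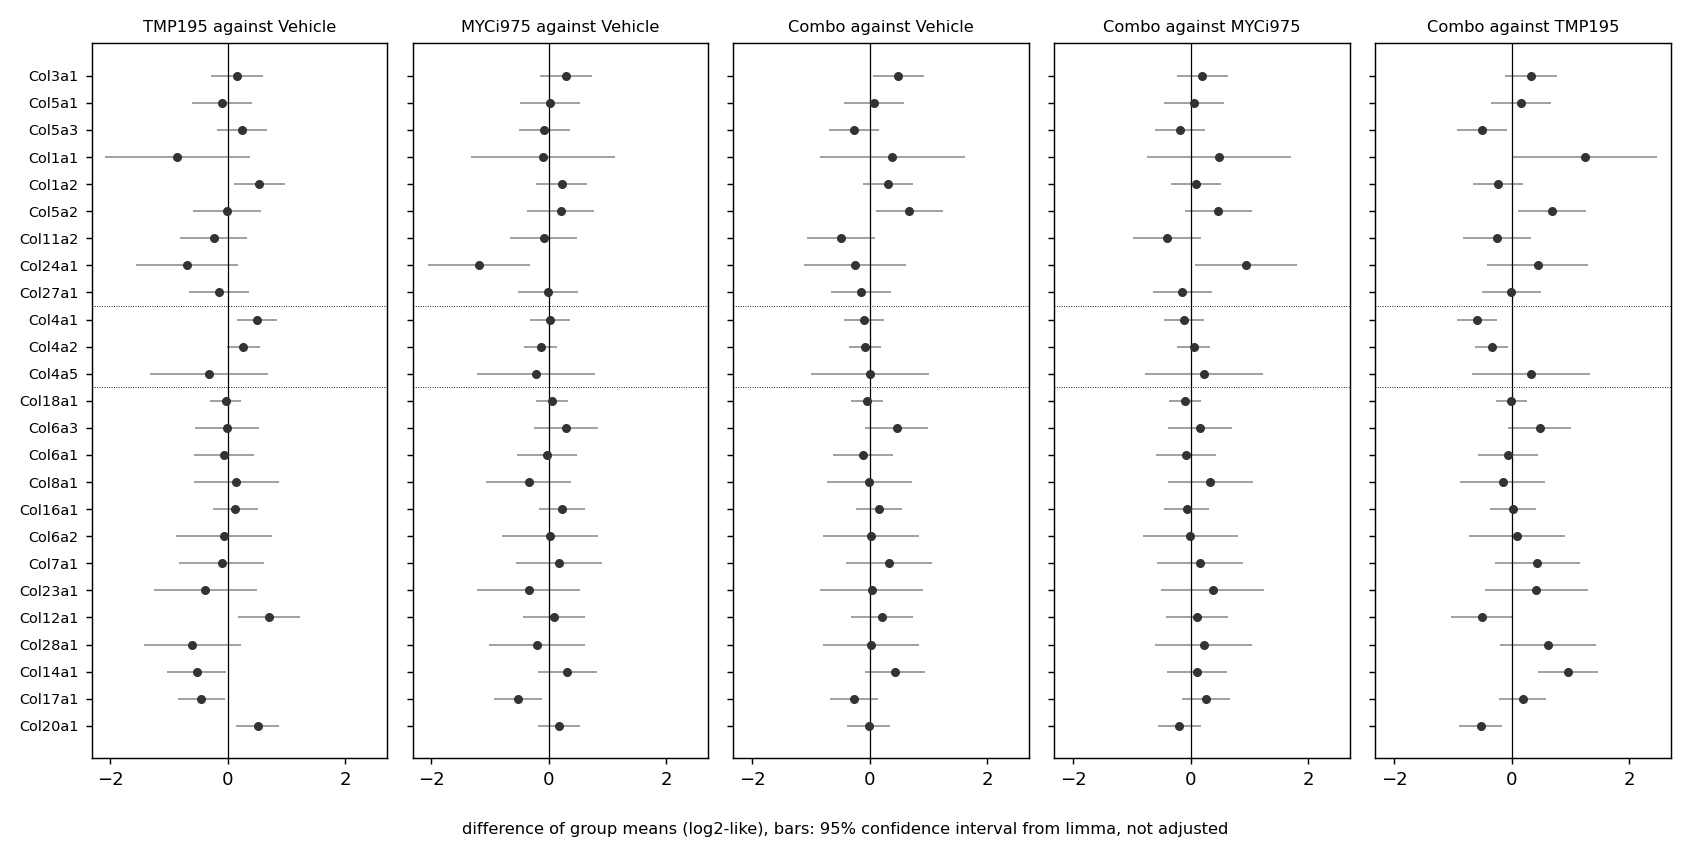
Difference of group means (log2-like) for the 25 tested collagens in 5 comparisons, with the 95% confidence interval from limma, not adjusted for the number of genes; dotted lines separate fibrillar, type IV and other chains. Most intervals cross 0, and those that do not include Col4a1 with TMP195 (0.16 to 0.84) and Col14a1 with Combo against TMP195 (0.45 to 1.47).

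TMP195 against Vehicle asks what the deacetylase inhibitor did alone. Col4a1 averaged 13.15 ± 0.29 in TMP195 and 12.65 ± 0.30 in Vehicle libraries (SD, n = 4 each), a difference of 0.50 (SE 0.16, limma adjusted p = 0.945), the smallest p of the collagens (unadjusted p = 0.00680). Its partner Col4a2 differed by 0.26 (SE 0.13), with an interval of -0.02 to 0.54, while Col4a5 differed by -0.32 (interval -1.33 to 0.68). The Col4a5 difference was 0.034 without TMP195 replicate 1 and 0.67 with the leukocyte marker mean as a covariate. No collagen passed the adjusted test (0 of 25, with 0% of all genes), and 6 had an unadjusted p under 0.05, Col4a1, Col20a1, Col12a1, Col1a2, Col17a1 and Col14a1, where 4.88% of all genes did. Of these, Col12a1 differed by 0.71, Col1a2 by 0.54 and Col20a1 by 0.51, and Col14a1 by -0.53 and Col17a1 by -0.45. Col20a1 and Col1a2 were higher in all 4 TMP195 than in all 4 Vehicle libraries, as were 1.1% of all genes, and 0 of 25 collagens were lower in all 4, against 1.4% of genes. For Col20a1, which passed the filter through TMP195 and MYCi975 libraries only, its difference and this separation are in part built in. In Col1a1 the TMP195 mean was 10.24 ± 0.54, against 11.10 ± 1.02 in Vehicle, a difference of -0.86 whose interval of -2.09 to 0.37 includes 0. Without Vehicle replicate 3 it was -0.46, and with the leukocyte marker mean as a covariate it was 0.15. By class, the median difference was -0.09 for fibrillar (3 of 9 above 0), 0.26 for type IV (2 of 3) and -0.06 for other chains (4 of 13), beside -0.01 over all genes. With Col7a1 and Col18a1 counted in the type IV class as basement membrane collagens, its median was -0.039.

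All 7 tested leukocyte markers had a higher mean in TMP195 than in Vehicle, with a median difference of 0.76, and none passed the adjusted test. With the leukocyte marker mean as a covariate, the TMP195 difference was 0.21 for Col1a2 and -0.14 for Col14a1, and 0.45 for Col4a1 and 0.57 for Col20a1. Without TMP195 replicate 1, the library highest in leukocyte markers, Col4a1 differed by 0.36, Col1a2 by 0.38 and Col14a1 by -0.36. Without the 4 libraries numbered 4, Col17a1 differed by -0.30.

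MYCi975 against Vehicle asks the same of the MYC inhibitor. Its smallest collagen p was that of Col24a1, with 5.85 ± 0.65 in MYCi975 and 7.04 ± 1.02 in Vehicle libraries (SD, n = 4 each), a difference of -1.19 (SE 0.41, limma adjusted p = 0.999). The groups overlap, since MYCi975 replicate 2 at 6.77 lies above Vehicle replicate 1 at 5.79. Col17a1 differed by -0.52 (SE 0.19, unadjusted p = 0.0144). Neither passed, so 0 of 25 collagens and 0% of all genes were called, and these 2 had an unadjusted p under 0.05, beside 3.03% of all genes. No collagen separated all 4 MYCi975 from all 4 Vehicle libraries, in either direction, whereas 0.789% of genes did so upward and 0.706% downward. Of the strongly read chains, Col3a1 differed by 0.29 (interval -0.15 to 0.73), Col5a1 by 0.02 (-0.49 to 0.53) and Col18a1 by 0.05 (-0.22 to 0.32). Without Vehicle replicate 4 Col3a1 differed by 0.14, and leaving out single libraries moved Col5a1 between -0.24 and 0.27. Without the 4 libraries numbered 4 the differences were -0.017 for Col3a1, -0.28 for Col5a1 and -0.038 for Col18a1. Class medians were -0.01 for fibrillar (4 of 9 above 0), -0.14 for type IV (1 of 3) and 0.05 for other chains (8 of 13), and -0.01 over all genes. Without MYCi975 replicate 3 the type IV median was 0.12 and the fibrillar median 0.07.

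Combo against Vehicle asks what both compounds did together. Col5a2 averaged 7.20 ± 0.40 in Combo and 6.53 ± 0.62 in Vehicle libraries (SD, n = 4 each), a difference of 0.67 (SE 0.27, limma adjusted p = 0.987). Col3a1 averaged 16.88 ± 0.35 in Combo and 16.39 ± 0.37 in Vehicle libraries, a difference of 0.49 (SE 0.21). These 2 fibrillar chains were the collagens with an unadjusted p under 0.05 (0.0237 and 0.0302), beside 4.09% of all genes, and with the adjustment 0 of 25 collagens and 0% of genes were called. Both genes overlap Vehicle, and without Vehicle replicate 4 the differences were 0.49 for Col5a2 and 0.33 for Col3a1. Col11a2 was lower in all 4 Combo than in all 4 Vehicle libraries, with a difference of -0.49 (interval -1.06 to 0.09), as were 1.53% of all genes, and 0 of 25 collagens were higher in all 4, against 1.79% of genes. Col6a3 differed by 0.46 (interval -0.08 to 1.001), and by 0.26 with the fibroblast marker mean as a covariate. Class medians were 0.07 for fibrillar (5 of 9 above 0), -0.08 for type IV (1 of 3) and 0.02 for other chains (8 of 13), and -0.01 over all genes. The 3 comparisons against Vehicle share the same 4 Vehicle libraries and so are not independent of each other.

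Combo against MYCi975 asks what TMP195 added. The single collagen with an unadjusted p under 0.05 was Col24a1, with 6.78 ± 0.37 in Combo and 5.85 ± 0.65 in MYCi975 libraries (SD, n = 4 each), a difference of 0.94 (SE 0.41, limma adjusted p = 1). It stands beside 2.32% of all genes, and 0 of 25 collagens and 0% of genes were called. No collagen separated all 4 libraries of each group, where 0.891% of genes did upward and 0.815% downward. Class medians of 0.09 for fibrillar (6 of 9 above 0), 0.06 for type IV (2 of 3) and 0.11 for other chains (8 of 13) stand beside 0.0006 over all genes. Without MYCi975 replicate 3 all 3 medians turned negative, to -0.14 for fibrillar, -0.21 for type IV and -0.11 for other chains. With the fibroblast marker mean as a covariate they were -0.073, -0.14 and -0.093 for the same classes.

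Combo against TMP195 asks what MYCi975 added, and it held the smallest p of any collagen. Col14a1 averaged 7.29 ± 0.38 in Combo and 6.33 ± 0.37 in TMP195 libraries (SD, n = 4 each), and all 4 Combo libraries lay above all 4 TMP195 libraries. The difference was 0.96 (SE 0.24, unadjusted p = 0.000961, limma adjusted p = 0.561), and leaving out any single library kept it between 0.78 and 1.07. Col4a1 went the other way, with 12.56 ± 0.16 in Combo and 13.15 ± 0.29 in TMP195 libraries, a difference of -0.59 (SE 0.16, limma adjusted p = 0.580). Col4a2 differed by -0.34 (SE 0.13) and Col20a1 by -0.52 (SE 0.17), and these 3 genes were lower in all 4 Combo than in all 4 TMP195 libraries, as were 1.62% of all genes. Col14a1 was the collagen that was higher in all 4, beside 1.75% of genes. The Col20a1 difference is in part built into its selection, since TMP195 and MYCi975 libraries alone took it through the filter. With sample quality weights, which let limma count libraries unequally, Col14a1 at 1.03 and Col20a1 at -0.69 passed the adjusted test, among 65 genes.

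Besides these 4, Col5a2 differed by 0.69, Col5a3 by -0.50 and Col1a1 by 1.25, which makes 7 of 25 collagens with an unadjusted p under 0.05, where 5.33% of all genes had it. None was called, nor was any gene (0%). The Col1a1 means were 11.49 ± 0.68 in Combo and 10.24 ± 0.54 in TMP195 libraries, and the interval of its difference, 0.02 to 2.48, barely leaves out 0. Without TMP195 replicate 2 the Col5a3 difference was -0.29. All 7 tested leukocyte markers had a lower mean in Combo than in TMP195, with a median difference of -0.81. With the leukocyte marker mean as a covariate, the difference of Col1a1 was 0.16, that of Col14a1 was 0.54, that of Col4a1 was -0.54 and that of Col20a1 was -0.59. With the fibroblast marker mean as the covariate, Col1a1 differed by 0.52 and Col14a1 by 0.70. Class medians were 0.16 for fibrillar (5 of 9 above 0), -0.34 for type IV (1 of 3) and 0.09 for other chains (8 of 13), and 0.0029 over all genes. The type IV median was -0.0020 with Col7a1 and Col18a1 counted in the class, -0.089 with all 5 type IV rows and no filter, and -0.54 with the leukocyte covariate.

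**Figure D5:**
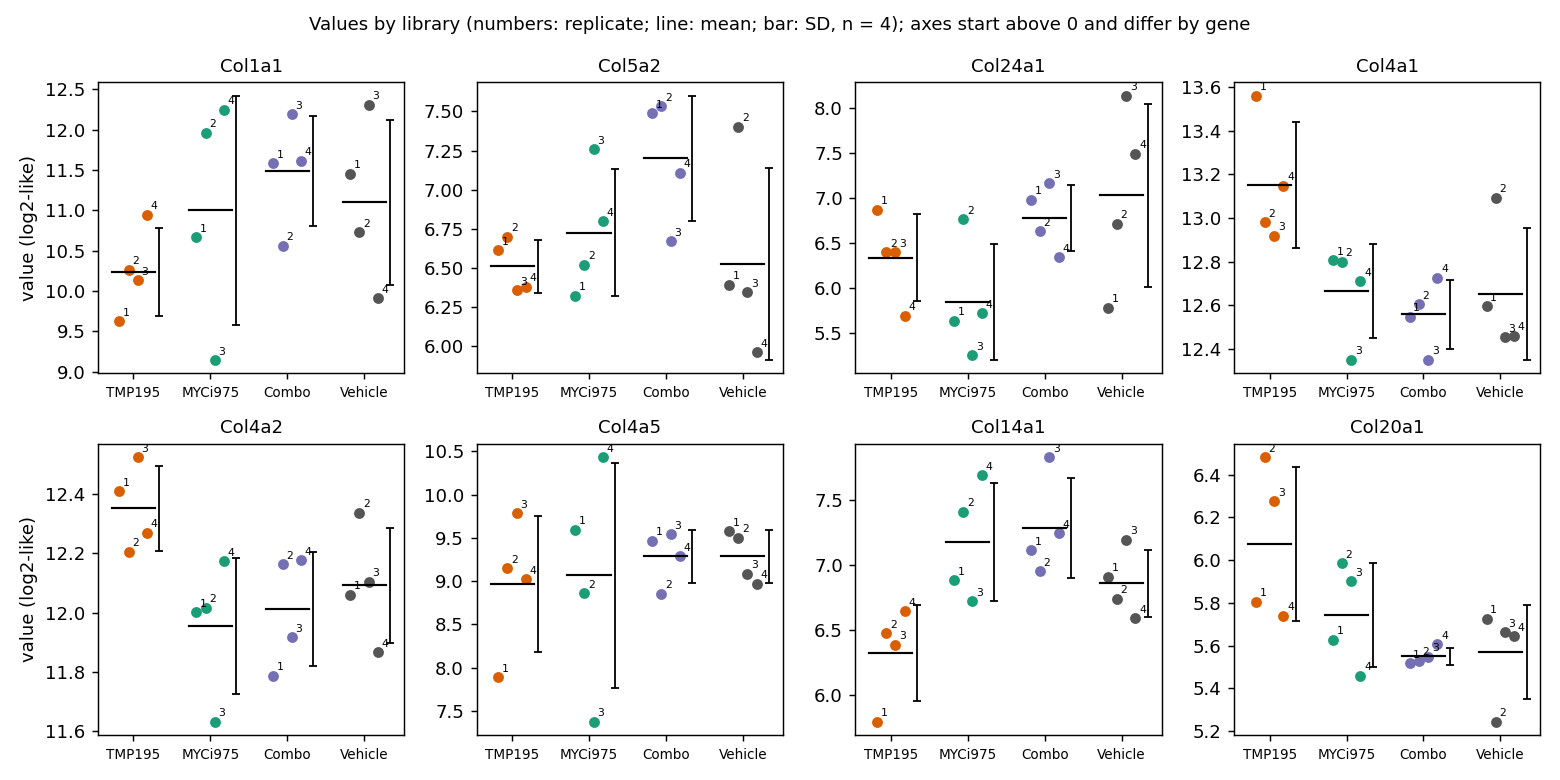
Values of 8 collagens in each library (dots, numbered by replicate), with the group mean as a line and the SD as a bar (n = 4 libraries); axes are log2-like, do not start at 0 and differ by gene. In Col14a1 the 4 Combo libraries (6.95 to 7.83) lie above the 4 TMP195 libraries (5.79 to 6.65), whereas Col1a1 groups overlap.

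The interaction, which is the Combo difference from Vehicle minus the sum of the 2 single-compound differences, asks whether the compounds combined other than additively. Col24a1 had 1.63 (SE 0.58), Col17a1 0.71 (SE 0.27), Col20a1 -0.70 (SE 0.24) and Col4a1 -0.61 (SE 0.23). These 4 of 25 collagens had an unadjusted p under 0.05, beside 3% of all genes, and 0 of 25 collagens and 0% of genes were called by limma (smallest collagen adjusted p = 1). Without the 4 libraries numbered 4, the Col17a1 interaction was 0.39. That of Col20a1 is in part built into its selection through TMP195 and MYCi975 libraries. Median interactions were 0.04 for fibrillar, -0.20 for type IV and 0.18 for other chains, and 0.01 over all genes. With the leukocyte covariate the type IV value was -0.54 and that of other chains -0.21. Apart from type IV in Combo against TMP195 and in the interaction, every class median took the opposite sign under at least 1 alternative setting or with 1 library left out.

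The numbering of the libraries was also tested, because the labels number them 1 to 4 in each group without saying what a number stands for. In the fit with group and number, 509 genes (3.24%) varied with the number at an adjusted p under 0.05, and 0 of 25 collagens did. At an unadjusted p under 0.05 there were 3 collagens, Col16a1 (unadjusted p = 0.00863), Col6a2 and Col11a2, beside 19.7% of all genes. Col16a1 was highest in replicate 4 of TMP195 and of MYCi975, at 12.12 and 12.48, and of Combo, at 11.97, while in Vehicle replicates 1 and 4 were alike, at 11.76 and 11.75.

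Genes that make, trim, bind or sense collagen were listed beside the collagens, and no member of these 6 lists was called in any of the 6 comparisons. Of 20 genes for chain synthesis and folding, 19 were tested; the smallest p-values were those of P4ha2, a subunit of prolyl hydroxylase, in Combo against TMP195 (-0.59, SE 0.25), and Plod1, a lysyl hydroxylase, in TMP195 against Vehicle (0.32, SE 0.15). Serpinh1, the collagen chaperone HSP47, varied with the replicate number (limma adjusted p = 0.0437). It read 13.34, 13.82, 13.38 and 13.57 in replicate 4 of TMP195, MYCi975, Combo and Vehicle, the highest value of each group. Of 13 genes for cleavage and cross-linking, 12 were tested, led by the lysyl oxidase family member Loxl4 (-0.38, SE 0.11) and the procollagen protease Adamts3 (0.60, SE 0.20), both in Combo against TMP195. Of 10 collagen receptors, 8 were tested: the endocytic receptor Mrc2 differed by 0.46 (SE 0.16) in Combo against Vehicle and the integrin chain Itga1 by 0.56 (SE 0.20) in Combo against TMP195.

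Laminins, nidogens and other basement membrane proteins (13 of 16 tested) were read alongside type IV. Lama5, a laminin chain, differed by -0.50 (SE 0.16) in Combo against TMP195, where 11 of the 13 genes had a lower mean in Combo and the list median was -0.09, beside 0.0029 over all genes. Among fibril-binding proteins (11 of 13 tested), the corneal proteoglycan keratocan, Kera, differed by 1.04 (SE 0.35) in Combo against Vehicle and lumican, Lum, by 0.98 (SE 0.35) in Combo against TMP195. That list had a higher mean in Combo for 8 of 11 genes against TMP195, with a median of 0.47, and for 9 of 11 against Vehicle, with a median of 0.32. Dcn, Lum and Postn of this list are also fibroblast markers, so it is not independent of the fibroblast marker mean. Lum was lowest in MYCi975 replicate 3 (11.43). Of the 14 genes of TGF-beta signalling, a main inducer of collagen transcription, all were tested. The ligand Tgfb3 read 10.96, 10.96, 11.61 and 11.01 in Combo libraries and 9.95, 10.15, 10.68 and 10.48 in TMP195 libraries. Every Combo library exceeded every TMP195 library, as in 1.75% of all genes, and the difference was 0.82 (SE 0.22, limma adjusted p = 0.580). The latent TGF-beta binding protein Ltbp2 differed by -0.59 (SE 0.19) in the same comparison. The list median there was 0.0036.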

How the data were processed

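RNA from 16 libraries of enriched LLC1 tumour cells was purified on a spin column and made into stranded total RNA libraries, per the labels' protocols. The deposited table holds variance-stabilised values on a log2 scale for 24334 genes. The submitters' processing notes list Salmon (no version) and the build hg38, although the identifiers are mouse. Which tool stabilised the values, and on which annotation, is not given in the sources used here. Depth per library is unknown, and 1960 to 3130 genes per library stood at the lowest value. Symbols matched 23150 identifiers (95.1%).

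A linear model with a mean per group was fitted to all 16 libraries with limma 3.58.1 (R 4.3.3; empirical Bayes with an intensity trend; two-sided tests; Benjamini-Hochberg over 15715 genes), and calls needed an adjusted p under 0.05. It was tested on simulated data with known differences. Replicate numbers were tested in a fit with group and number, and were not treated as pairs, since not every same-numbered pair of libraries correlated above 0.1. The intervals and p-values of the comparisons come from the fit without the number, although 509 genes varied with it. Transcript lengths are the longest coding transcripts in GENCODE M21, and promoters come from RefSeq (GRCm38.p6; 29 of the 37 collagens matched). Members, gene lists and tests were chosen with earlier results of these data known. Described in every library are, per class, the 4 tested collagens with the highest mean, the one with the largest SD and those with the smallest p in each comparison; from each other list, the 2 genes with the smallest p and any called, with 1 gene not reported here. Differences of other collagens (Col1a2, Col6a2, Col11a2, Col12a1, Col16a1 and Col17a1) were named after their values were seen. Alternatives changed the filter, moderation, scaling, weights, covariates, fitted groups, libraries left out, the replicate block, the class definition and the use of means for medians. Leaving out both libraries highest in leukocyte markers was added after seeing the data.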

Additional observations from a re-analysis of the deposited data

Results flagged for a closer look

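Among 112 sets of 4 libraries (25 collagens and 3 class means in 4 groups), 7 (6.25%) held a library set far apart from the other 3, where chance alone gives about 1 in 20. Col17a1 accounted for 3 of them: TMP195 replicate 4 read 5.44 where the other 3 lay between 5.88 and 5.92, MYCi975 replicate 4 read 5.35 against 5.81 to 5.87, and Vehicle replicate 1 read 5.75 against 6.35 to 6.44. Col16a1 read 12.48 in MYCi975 replicate 4, where the others lay between 11.59 and 11.74. Col18a1 read 15.17 in Combo replicate 1, with the others between 14.73 and 14.79, and Col20a1 read 5.25 in Vehicle replicate 2, with the others between 5.65 and 5.73. The mean of the other collagens was 9.73 in TMP195 replicate 1 and between 10.005 and 10.04 in the rest of that group. No cause of these values was tested.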

How the results depend on the processing

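Across 29 alternative settings, 0 collagens were called in any comparison, with an exception: with sample quality weights, 2 collagens were called in Combo against TMP195, Col14a1 at 1.03 and Col20a1 at -0.69, among 65 genes in all. Since Col20a1 passed the filter through TMP195 and MYCi975 libraries only, its difference is in part built in. Of 150 differences (25 collagens in 6 comparisons), 69 kept their sign in every alternative and 81 changed it at least once. The 22 with an unadjusted p under 0.05 all kept theirs. Those 22 were picked by p in the same libraries that the alternatives reuse, so this is in part built in. Counts over all genes, 0 in each comparison as reported, became 1 in Combo against TMP195 and 1 for any difference among the 4 groups without an intensity trend, 1 for any difference with robust moderation, median centring or sample quality weights, and 1 in Combo against Vehicle with only the compared groups fitted. Leaving out each library in turn gave 0 to 2 genes in TMP195 against Vehicle, in Combo against TMP195 and for any difference among the groups, and 0 to 1 in MYCi975 against Vehicle and in Combo against MYCi975. Without the 2 libraries highest in leukocyte markers, Combo against TMP195 and any difference among the groups had 1 gene each. The count for the replicate number, 509, was 115 to 725 with each library left out, being at most 331 without TMP195 replicates 1, 2 or 4, MYCi975 replicates 1 or 4, Combo replicate 1 or Vehicle replicates 1 or 4; it was 310 without a trend, 130 with weights, 196 without the 2 leukocyte-high libraries and 5 without the libraries numbered 4.

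Medians of the 3 type IV chains were the ones that moved by more than the SD of library medians within groups, which was 0.19 for type IV, 0.49 for fibrillar and 0.56 for other chains. Combo against TMP195 gave -0.089 with no filter (5 chains), -0.54 with the leukocyte covariate and -0.0020 with types VII, XV and XVIII included, which took TMP195 against Vehicle to -0.039. The interaction was -0.54 with the leukocyte covariate, and Combo against MYCi975 was -0.14 with the fibroblast covariate. Without the 2 leukocyte-high libraries MYCi975 against Vehicle gave 0.12 and Combo against MYCi975 gave -0.21; with each library left out these ranged from -0.21 to 0.12 and from -0.21 to 0.13. Causes were not tested. Fibrillar medians ranged from -0.24 to 0.36 and those of other chains from -0.28 to 0.51 over all comparisons and settings.

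The replicate numbers were not treated as pairs, because 15 of 24 same-numbered pairs, not all, correlated above 0.1 (range -0.24 to 0.43): all 6 of number 1, 2 of number 2, 1 of number 3 and all 6 of number 4, beside 10 of 72 pairs of different number. The labels do not say what a number stands for, and 9 of 16 libraries correlated best with their own number. With the replicate block, calls stayed at 0 in all 6 comparisons, with 991, 621, 878, 554, 1005 and 591 genes at an unadjusted p under 0.05 for TMP195, MYCi975 and Combo against Vehicle, Combo against MYCi975, Combo against TMP195 and the interaction, and the type IV median of Combo against TMP195 was -0.34. Collagens at that unadjusted level numbered 6, 2, 3, 1, 6 and 4 of 25 in the same order. Scaling shifted the median difference of all genes by at most 0.06. With depth unknown, low collagens near the lowest value cannot be told from absent ones.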
